A study of Homo sapiens with 6 samples.

Results

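The HOX cluster genes were followed here by name. A member was any gene whose whole symbol was HOX, a letter from A to D and digits, and 33 of the 24551 genes in the files were members: 9 of the HOXA cluster, 9 of HOXB, 6 of HOXC and 9 of HOXD. A further 5 HOX genes stood only in rows that combine several genes and are given separately. The study lowered SPOP, a substrate adaptor of a cullin-RING ubiquitin ligase, with siRNA in DU145, a cell line from a prostate carcinoma, and in 769-P, a cell line from a renal cell adenocarcinoma, and sequenced polyadenylated RNA. Each line has 3 libraries: 1 of cells with a control siRNA (control) and 1 of cells with each of 2 SPOP siRNAs (siRNA 1 and siRNA 2). No other genotype or drug distinguishes the groups. Each line is a single established tumour line, and the labels list 1 library per siRNA without naming separate cultures, although the study's methods describe biological replicates, so any p-value measures only the spread between these libraries, which may be technical.

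HOX genes encode homeodomain transcription factors that give cells their position along the head-to-tail axis of the embryo. They lie in 4 clusters, and the number in the name marks the place within the cluster: low numbers act towards the head (anterior), high numbers towards the tail, the limb ends and the urogenital tract (posterior). Adult epithelial and mesenchymal cells keep part of this code, which Polycomb proteins hold silent and trithorax proteins hold active, and HOX proteins bind DNA together with PBX and MEIS cofactors.

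On GRCh37 with the GENCODE annotation, the members of the HOXA cluster lie at chr7:27132612-27239710 (minus strand), those of HOXB at chr17:46605888-46710934 (minus strand), those of HOXC at chr12:54332615-54406553 (plus strand) and those of HOXD at chr2:176957449-177055635 (plus strand). Exons of 17 of the 33 members overlap an exon of a gene on the opposite strand, mostly an antisense RNA of the cluster. Strand is not stated for these libraries, so reads of such a gene and of its antisense partner cannot be told apart. RefSeq promoter windows (GRCh38.p14, 250 bases before to 50 after a start) matched 16 of the 33 members, with 22 windows. The median window of a member held 23.5 CG dinucleotides, against 14 over all 35116 windows, while the median GC content was 59% against 58.7%. TGATNNAT, the type of site bound by HOX and PBX proteins together, was searched on both strands and stood in 13.6% of the members' windows (HOXA2, HOXB1 and HOXD11) and in 7.40% of all windows. TATAAA stood in 9.09% (HOXA3 and HOXD13) and 11.5%, and the homeodomain core TAATTA in 9.09% (HOXD3 and HOXD11) and 4.84%. These matches describe letters in a window and not bound sites.

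The 250 bases before the RefSeq start are shown for 4 members that carry the contrast between the lines, HOXA11 and HOXD1 with higher levels in DU145 and HOXA4 and HOXD8 with higher levels in 769-P. Each was found once in GRCh37 by exact match, HOXA11 at chr7:27224852-27225101 (minus strand), HOXD1 at chr2:177053146-177053395 (plus strand), HOXA4 at chr7:27170377-27170626 (minus strand) and HOXD8 at chr2:176994183-176994432 (plus strand). All letters are in lower case because none of the 4 holds TGATNNAT or TATAAA. The windows differ in base composition, with 11 CG dinucleotides and 51.6% GC before HOXA11, 31 and 74.8% before HOXD1, 26 and 70% before HOXA4, and 28 and 72.4% before HOXD8. In the annotation, exons of HOXA11 and HOXD1 overlap exons of the antisense genes HOXA11-AS and HAGLR.
HOXA11: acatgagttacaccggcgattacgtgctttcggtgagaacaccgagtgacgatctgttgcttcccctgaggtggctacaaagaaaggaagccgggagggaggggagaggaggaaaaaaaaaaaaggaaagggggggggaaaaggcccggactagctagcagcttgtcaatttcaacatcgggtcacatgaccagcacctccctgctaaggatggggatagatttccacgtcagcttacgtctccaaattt
HOXD1: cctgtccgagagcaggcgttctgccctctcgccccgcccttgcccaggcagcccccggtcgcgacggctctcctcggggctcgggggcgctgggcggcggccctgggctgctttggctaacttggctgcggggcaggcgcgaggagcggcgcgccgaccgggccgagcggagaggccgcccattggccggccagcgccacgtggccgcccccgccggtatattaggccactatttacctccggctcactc
HOXA4: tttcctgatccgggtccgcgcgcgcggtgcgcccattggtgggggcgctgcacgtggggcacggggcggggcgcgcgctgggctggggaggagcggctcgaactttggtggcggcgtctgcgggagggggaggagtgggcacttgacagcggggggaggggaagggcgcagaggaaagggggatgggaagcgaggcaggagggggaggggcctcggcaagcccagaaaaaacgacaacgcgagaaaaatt
HOXD8: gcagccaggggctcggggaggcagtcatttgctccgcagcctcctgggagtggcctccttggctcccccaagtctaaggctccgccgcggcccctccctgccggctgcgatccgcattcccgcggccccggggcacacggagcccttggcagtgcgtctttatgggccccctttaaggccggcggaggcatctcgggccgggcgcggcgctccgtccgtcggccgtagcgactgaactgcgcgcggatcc

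Values are FPKM, sequenced fragments divided by transcript length and by the size of the library, so levels can be compared between genes, and they are given below in the order control, siRNA 1 and siRNA 2. In bulk RNA, fewer expressing cells and less RNA per cell cannot be told apart. SPOP, the targeted gene, was at 16.1 FPKM in the DU145 control and at 2.77 and 2.96 with the siRNAs. In 769-P the same libraries held 11.6, 1.53 and 1.39 FPKM. The DU145 control and the 769-P siRNA 2 libraries stood apart: olfactory receptor genes, which are normally silent outside the nose, were above 0 for 287 and 237 of 366 genes there and for 3 to 5 in each other library, with means of 0.345 and 0.227 FPKM against at most 0.00554. Read totals are unknown. The low values gave relative depths from 0.683 (DU145 siRNA 2) to 1.41 (769-P siRNA 2) with the 769-P control set to 1. Low values of these 2 libraries are therefore given below beside those of the other libraries of the line. Of 8 kidney markers 6 were tested and all 6 were higher in 769-P (PAX8 and CDH6 among them), as were 18.2% of all tested genes. Some of the 6, CDH6 among them, were under 1 FPKM in every DU145 library. They passed the filter only through 769-P and so had to differ. CA9 and EMX2 missed the filter, at 0 in every 769-P library and at most 0.242 FPKM in DU145. Of 7 prostate markers 2 were tested and both were higher in DU145, FOXA1 among them, as were 32% of all tested genes. The prostate-defining KLK3, KLK2, TMPRSS2 and FOLH1 were at or near 0. All 4 epithelial markers were higher in DU145 (CDH1, EPCAM and KRT18 led), and of 4 leukocyte and 3 endothelial markers none reached the filter. CDH1 was under 1 FPKM in every 769-P library, so it passed the filter only through DU145 and had to differ.

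DU145 cells expressed many HOX members, most of all of the HOXB cluster, and 769-P cells few. In 769-P a row that combines HOXA9 and HOXA10, which is no member, stood at 16.1 to 18.3 FPKM, above every member of that line, and is left out of the sums and ranks in this paragraph. Summed over the members, HOX transcripts came to 154, 181 and 150.2 FPKM in the DU145 libraries and to 18.5, 22.9 and 23.0 FPKM in the 769-P libraries. At least 1 FPKM was reached by 21, 20 and 19 members in DU145 and by 5 in each 769-P library. HOXB7 was the highest member in every DU145 library and HOXA3 in every 769-P library. Over all 3 libraries of a line, 18 members reached 1 FPKM throughout DU145 and 4 throughout 769-P (HOXA3, HOXA4, HOXC9 and HOXD8), with HOXA3 and HOXC9 common to both.

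**Figure D1:**
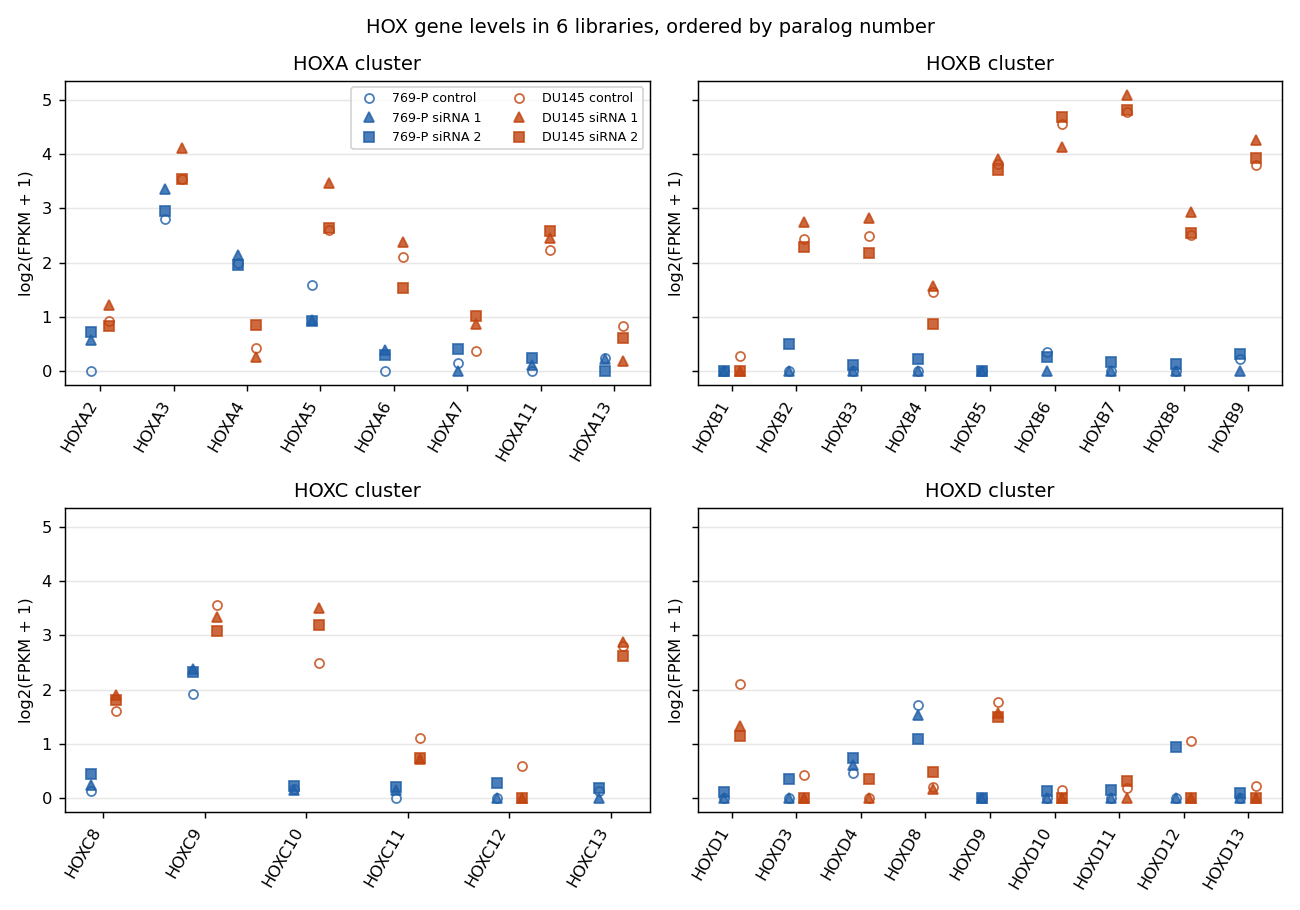
Level of the HOX members described in the text in each library as log2(FPKM + 1) on the vertical axis, with 1 panel per cluster and members in order of paralog number; blue marks are 769-P and orange marks DU145, open circles controls, triangles siRNA 1 and squares siRNA 2. HOXB2 to HOXB9 of 769-P lie at or near 0 while HOXB7 of DU145 reaches 33.2 FPKM, and HOXA4, HOXD4 and HOXD8 are the members whose 769-P marks all lie above those of DU145.

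A test needs a mean over the 6 libraries of at least 1 FPKM. That left 11865 genes and 19 of the 33 members (6 HOXA, 7 HOXB, 4 HOXC and 2 HOXD). A limma fit on log2(FPKM + 1) with terms for line and knockdown, adjusted over all 11865 genes by Benjamini-Hochberg, called 18 members higher in DU145, where 32% of all tested genes were called, and 1, HOXA4, higher in 769-P, where 18.2% were. Of the 19 tested, 14 were under 1 FPKM in every 769-P library and so passed the filter only through DU145, which means that they had to differ. The count over the tested members is therefore no measure of how the family as a whole behaves. For the same reason the adjusted p given below for these 14 is no separate support for their difference. The same holds for HOXA4, which was under 1 FPKM in every DU145 library. Over all 33 members, with no filter, every DU145 library was above every 769-P library for 21 (23% of all 24551 genes), the reverse held for 3 (11.6%), and the lines overlapped for 9. All log2 differences below are DU145 minus 769-P on the log2(FPKM + 1) scale, which understates the change of low genes, with the standard error (SE) and limma's adjusted p. The median difference over all tested genes was 0.16 and moved to -0.05 under quantile normalization, a shift that none of the 19 members changed sign with.

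The HOXB cluster was the most unequal. Its 9 members summed to 90.6, 102 and 91.1 FPKM in DU145 (94.7 ± 6.71, SD, n = 3) and to 0.449, 0 and 1.32 FPKM in 769-P, so that HOXB made up 58.7% of the HOX sum in DU145 and 2.72% in 769-P. The 3 libraries of each line did not overlap, and the exact two-sided permutation test gave p = 0.1, the smallest that 3 against 3 libraries allow. In 769-P, 7 of the 9 members were listed at 0 in both the control and siRNA 1, and no HOXB member passed 0.418 FPKM in any library. Because the 769-P values include exact zeros, no ratios are given.

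Within HOXB, the central and posterior members stood highest. HOXB7, which is active in the embryonic kidney's collecting duct lineage, was at 26.6, 33.2 and 27.0 FPKM in DU145 and at 0, 0 and 0.125 in 769-P (difference 4.84, SE 0.18, adjusted p = 1.39e-06). HOXB6 was at 22.4, 16.6 and 24.7 FPKM in DU145 and at 0.281, 0 and 0.199 in 769-P (4.25, SE 0.21, adjusted p = 2.51e-06). Both genes were thus abundant in every DU145 library, and HOXB7 exceeded HOXB6 with no overlap. HOXB9, which takes part in patterning the thorax, was at 12.9, 18.2 and 14.2 FPKM in DU145 and at 0.168, 0 and 0.238 in 769-P (3.82, SE 0.20, adjusted p = 3.74e-06). HOXB5, known from gut and lung development, was at 13.1, 14.1 and 12.03 FPKM in DU145 and at 0 in all 3 libraries of 769-P (3.81, SE 0.18, adjusted p = 2.34e-06). The DU145 ranges of HOXB9, HOXB5 and, in the HOXA cluster, HOXA3 overlapped, so their order among themselves is not resolved.

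The anterior HOXB members and HOXB8 were at intermediate levels. HOXB8, known from blood cell progenitors, was at 4.68, 6.65 and 4.88 FPKM in DU145 and at 0, 0 and 0.0906 in 769-P (2.62, SE 0.20, adjusted p = 2.20e-05). HOXB3, a hindbrain gene, was at 4.59, 6.08 and 3.55 FPKM in DU145 and at 0, 0 and 0.0875 in 769-P (2.46, SE 0.23, adjusted p = 5.63e-05). HOXB2, also of the hindbrain, was at 4.39, 5.74 and 3.89 FPKM in DU145 and at 0, 0 and 0.418 in 769-P (2.32, SE 0.23, adjusted p = 8.55e-05). The ranges of these 3 genes in DU145 overlapped with each other and lay below all of HOXB5, HOXB6, HOXB7 and HOXB9. HOXB4, known for expanding blood stem cells, was at 1.74, 1.97 and 0.835 FPKM in DU145 and at 0, 0 and 0.161 in 769-P. Its mean missed the filter, and with no filter the difference was 1.23 (SE 0.24, adjusted p = 0.0444). HOXB1, the most anterior gene of the cluster, was above 0 in the DU145 control library alone (0.209 FPKM). HOXB3 shares exon sequence with HOXB4 and HOXB6 on the same strand, so reads could be split among them.

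Antisense RNAs of the cluster followed the same split between the lines. HOXB-AS3, whose exons overlap HOXB3, HOXB5 and HOXB6, was at 6.06, 8.10 and 8.48 FPKM in DU145 and at 0, 0 and 0.799 in 769-P (2.80, SE 0.25, adjusted p = 4.46e-05). HOXB-AS1, which overlaps HOXB2 and HOXB3, was at 2.23, 2.36 and 1.92 FPKM in DU145 and at 0 in all 769-P libraries (1.66, SE 0.20, adjusted p = 0.000218). Of the HOXB members with no such partner in the annotation, HOXB4, HOXB7, HOXB8 and HOXB9 were above 769-P in every DU145 library, and HOXB1 overlapped between the lines. The part of antisense reads in these values was not tested.

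**Figure D2:**
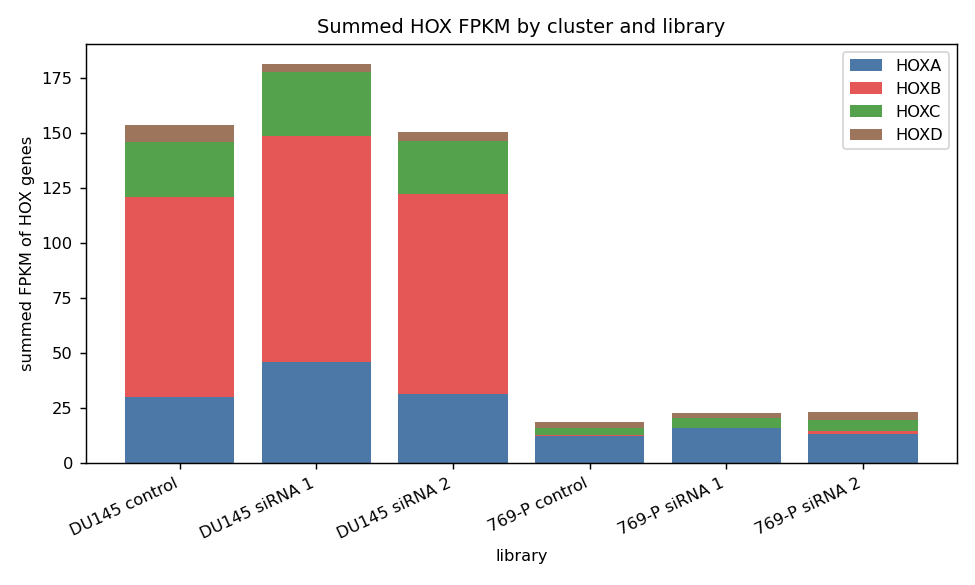
Summed FPKM of the HOX members in each of the 6 libraries (vertical axis), stacked by cluster. HOXB takes 58.7% of the HOX sum on average in DU145 and is hardly visible in 769-P, where HOXA takes 64.5%.

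The HOXA cluster was expressed in both lines. The sum of its 9 members was 35.7 ± 8.81 FPKM (SD, n = 3) for DU145 against 13.8 ± 1.86 (SD, n = 3) for 769-P, 2.59 times as much in DU145, with p = 0.1 in the exact permutation test. HOXA made up 64.5% of the HOX sum in 769-P and 21.9% in DU145. HOXA3, needed for the thymus and parathyroid, was at 10.7, 16.3 and 10.7 FPKM in DU145 and at 6.01, 9.25 and 6.79 in 769-P, and siRNA 1 was the highest library in both lines. Its difference of 0.69 (SE 0.21, adjusted p = 0.0227) was the smallest of the 19 and did not pass the threshold in 8 of 16 alternatives. Leaving out the DU145 control gave adjusted p = 0.122, the DU145 siRNA 1 library 0.0875, the 769-P control 0.121 and the 769-P siRNA 2 library 0.0977 (limma).

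HOXA5 and HOXA6 were higher in DU145 by wider margins than HOXA3. HOXA5, known from lung development, was at 5.07, 10.0 and 5.21 FPKM in DU145 and at 1.99, 0.933 and 0.905 in 769-P (1.75, SE 0.30, adjusted p = 0.00155). HOXA6 was at 3.31, 4.21 and 1.90 FPKM in DU145 and at 0, 0.307 and 0.232 in 769-P (1.78, SE 0.27, adjusted p = 0.000745). Neither gene overlapped between the lines, and the siRNA 1 library was the highest of DU145 for both. HOXA2, a gene of the hindbrain and the neural crest of the face, was at 0.895, 1.33 and 0.771 FPKM in DU145 and at 0, 0.493 and 0.652 in 769-P, with no overlap. HOXA7 was at 0.293, 0.829 and 1.01 FPKM in DU145 and at 0.115, 0 and 0.325 in 769-P, and its lines overlapped. Both genes fell short of the filter.

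HOXA4 ran the other way. It was at 2.99, 3.44 and 2.88 FPKM in 769-P and at 0.346, 0.196 and 0.796 in DU145, a difference of -1.52 (SE 0.22, adjusted p = 0.000661) and 6.96 times as much in 769-P on average. HOXA4 passed the filter only through 769-P, so its adjusted p is no separate support for the difference. The libraries did not overlap, although its neighbours on both sides in the cluster, HOXA3 and HOXA5, were higher in DU145. Exons of HOXA4 overlap exons of 2 genes on the opposite strand and 1 on the same strand, and the part of their reads was not tested. Without the DU145 control and the 769-P siRNA 2 libraries together, a setting chosen after seeing the data, the difference was -1.60 with adjusted p = 0.0822 (limma).

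At the posterior end of HOXA, HOXA11 and the row that holds HOXA9 and HOXA10 went opposite ways. HOXA11, which patterns the forearm, the uterus and the kidney, was at 3.72, 4.46 and 5.03 FPKM in DU145 and at 0, 0.0803 and 0.182 in 769-P (2.31, SE 0.19, adjusted p = 3.11e-05). HOXA11-AS was at 1.95, 3.53 and 2.24 FPKM in DU145 and at 0 in every 769-P library (1.81, SE 0.22, adjusted p = 0.000264). HOXA9 and HOXA10, which act in the blood and the uterus, have no rows of their own here. A single row that combines them with their read-through transcript stood at 18.3, 17.0 and 16.1 FPKM in 769-P and at 9.57, 10.6 and 10.1 in DU145. That row was higher in 769-P with no overlap (-0.71, SE 0.15, adjusted p = 0.00507), above every member of that line. With this row the HOXA sum was 45.8 ± 9.26 FPKM (SD, n = 3) for DU145 against 30.9 ± 1.79 (SD, n = 3) for 769-P, so the log2 difference of the sums went from 1.29 to 0.54. HOXA13, the most posterior gene, stayed under 1 FPKM in all libraries and overlapped between the lines.

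In the HOXC cluster DU145 was again higher. DU145 had 26.2 ± 2.77 FPKM (SD, n = 3) over the 6 members against 4.25 ± 1.03 (SD, n = 3) for 769-P, 6.16 times as much in DU145 (exact permutation p = 0.1). HOXC10, known from the lumbar spinal cord and the hindlimb, was at 4.64, 10.4 and 8.16 FPKM in DU145 and at 0.119, 0.111 and 0.168 in 769-P (2.89, SE 0.23, adjusted p = 2.94e-05). HOXC13, required for hair and nail, was at 6.02, 6.34 and 5.19 FPKM in DU145 and at 0.0955, 0 and 0.135 in 769-P (2.67, SE 0.19, adjusted p = 1.55e-05). HOXC9, a gene of thoracic motor neurons, was at 10.9, 9.09 and 7.44 FPKM in DU145 and at 2.78, 4.18 and 4.03 in 769-P (1.12, SE 0.21, adjusted p = 0.00275). HOXC9 was therefore the second member, after HOXA3, that neither line lacked, 2.49 times as much in DU145 on average, and in 769-P most of the HOXC sum. An exon of HOXC6 on the same strand overlaps HOXC9, so reads there could be split.

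The remaining HOXC members were lower. HOXC8, which patterns the thorax, was at 2.05, 2.75 and 2.50 FPKM in DU145 and at 0.1003, 0.188 and 0.355 in 769-P (1.5, SE 0.19, adjusted p = 0.000343). HOXC11 was at 1.16, 0.656 and 0.666 FPKM in DU145 and at 0, 0.106 and 0.161 in 769-P, and with no filter its difference was 0.74 (SE 0.14, adjusted p = 0.0430). HOXC12 was listed at 0 outside the DU145 control and 769-P siRNA 2 libraries. A row that combines HOXC4, HOXC5 and HOXC6 was at 8.004, 14.4 and 8.36 FPKM in DU145 and at 1.27, 1.32 and 1.2 in 769-P (2.27, SE 0.23, adjusted p = 9.80e-05). HOTAIR, a long noncoding RNA of this cluster, was at 0.248, 1.33 and 1.42 FPKM in DU145 and at 0 in each 769-P library.

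The HOXD cluster was the least expressed of the 4 in DU145, and the lines used different members of it. The HOXD sum was 5.08 ± 2.28 FPKM (SD, n = 3) for DU145 against 2.81 ± 0.472 (SD, n = 3) for 769-P, a log2 difference of 0.62 (exact permutation p = 0.1) that was 0.33 without the DU145 control. With values divided by the upper quartile of each library the lines overlapped (exact permutation p = 0.3). HOXD1, the anterior end, was at 3.30, 1.52 and 1.21 FPKM in DU145 and at 0, 0 and 0.0831 in 769-P (1.49, SE 0.25, adjusted p = 0.00141). HOXD9, a posterior gene of the limb and the lumbar spine, was at 2.42, 1.96 and 1.81 FPKM in DU145 and at 0 in all libraries of 769-P (1.61, SE 0.20, adjusted p = 0.000261). HOXD8 lies next to HOXD9 and went the other way, at 2.29, 1.90 and 1.12 FPKM in 769-P and at 0.150, 0.127 and 0.389 in DU145. Its mean fell just short of the filter, and with no filter the difference was -1.16 (SE 0.21, adjusted p = 0.0404). HOXD4, which acts in the hindbrain and the neck vertebrae, was at 0.374, 0.525 and 0.661 FPKM in 769-P and at 0, 0 and 0.273 in DU145, with -0.48 (SE 0.11, adjusted p = 0.0658) in the same fit.

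The antisense genes of HOXD split between the lines in opposite directions. Both overlap HOXD3, whose values overlapped between the lines. HAGLR, also over HOXD1, was at 3.22, 2.14 and 3.04 FPKM in DU145 and at 0.118, 0.0553 and 0 in 769-P (1.83, SE 0.20, adjusted p = 0.000160). HOXD-AS2, also over HOXD8, was at 1.58, 1.11 and 1.67 FPKM in 769-P and at 0 in each DU145 library. Grouped as central members, HOXD4 and HOXD8 reached 2.29 ± 0.456 FPKM (SD, n = 3) for 769-P against 0.313 ± 0.302 (SD, n = 3) for DU145. Without the combined rows, no other stretch of a cluster (anterior, central or posterior) had the higher sum in 769-P. HOXD3, HOXD10, HOXD12 and HOXD13 were above 0 in the DU145 control and 769-P siRNA 2 libraries alone, and HOXD12 reached 1.09 and 0.911 FPKM there. HOXD11 was at most 0.239 FPKM. In all, 6 members (these 4, HOXB1 and HOXC12) had no value above 0 outside the 2 libraries in which olfactory receptor genes were also above 0, and their part in those values was not tested.

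**Figure D3:**
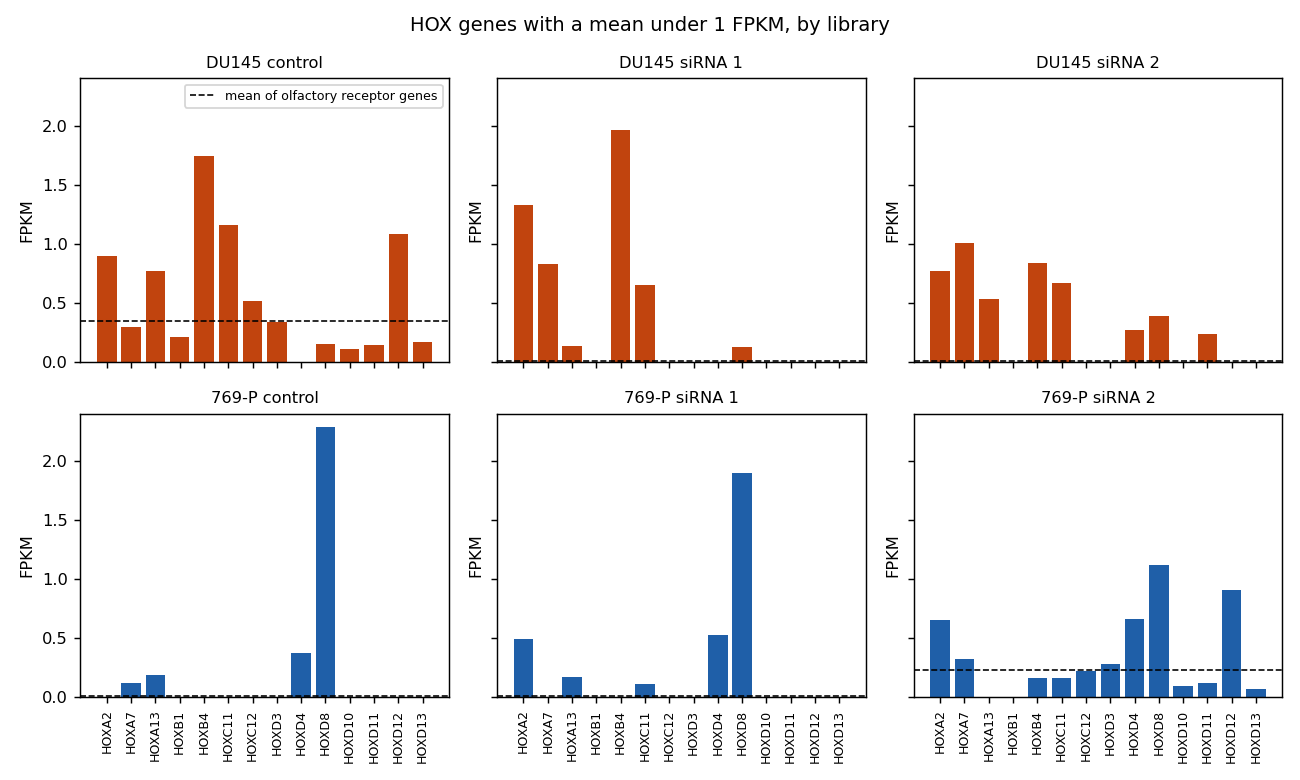
FPKM of the 14 HOX members with a mean under 1 FPKM, as bars, with 1 panel per library; the dashed line is the mean FPKM of the 366 olfactory receptor genes of that library. HOXD8 stands out in the 769-P libraries and HOXB4 in the DU145 control and siRNA 1 libraries, and HOXD12 has bars in the DU145 control and 769-P siRNA 2 panels alone.

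Read along the clusters, the shares of the members by position differed as well. Anterior members (numbers 1 to 3) gave 19.2% of the HOX sum in DU145 and 42.5% in 769-P, where HOXA3 alone made up most of it. Central members (4 to 8) gave 52.1% and 35.6%, and posterior members (9 to 13) 28.7% and 22.0%. These shares leave out the combined rows. The row of HOXA9 and HOXA10, both posterior genes, averaged 17.1 FPKM in 769-P, where the posterior members summed to 4.77 FPKM. In DU145 that row averaged 10.1 FPKM, beside 46.4 FPKM for the posterior members. The lower posterior share of 769-P therefore holds only with that row left out. Members of one cluster and one library are not independent, so these shares are descriptions.

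After SPOP knockdown no HOX member passed the test in either line. The limma fit called 0 of the 19 tested members in DU145 (0.135% of all tested genes were called), 0 in 769-P (0.101%) and 0 for a difference of the knockdown effect between the lines (0.169%). At an unadjusted p under 0.05 the counts were 2, 0 and 1, beside 6.27%, 6.97% and 2.74% of all tested genes. SPOP itself, which kept 17.2% and 18.4% of its control level in DU145 and 13.2% and 12.04% in 769-P, had adjusted p = 0.134 and 0.0948 in the same limma fits, so with 1 control library per line a change of that size was not called. HOX changes are therefore also given by a rule of size, at least 1.5-fold on the log2(FPKM + 1) scale in the same direction with both siRNAs. It compares libraries and is not a test.

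By that rule HOXC10 was the sole tested member above its control with both siRNAs in DU145, with log2 changes of 1.02 and 0.70 (4.72% of all tested genes met the rule). Its limma estimate was 0.86 (SE 0.27, adjusted p = 0.774). HOXC10 was at 4.64 FPKM in the control and at 9.29 ± 1.60 FPKM (SD, n = 2) with the siRNAs, so both siRNA libraries lay above the control. With each library's median change over all genes removed, the changes were 0.95 and 0.58, and the second no longer met the rule. In 769-P, where the gene was at 0.119 FPKM in the control, no such difference was detectable. HOXC-AS3, antisense to HOXC10, was at 0.795, 1.34 and 1.36 FPKM in DU145 (log2 changes 0.38 and 0.40, short of 1.5-fold). Its exons overlap those of HOXC10 and strand is not stated, so reads of the genes cannot be told apart there.

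HOXD1 was the one tested member at least 1.5-fold below its DU145 control with both siRNAs, with log2 changes of -0.77 and -0.96 (1.19% of all tested genes) and a limma estimate of -0.86 (SE 0.24, adjusted p = 0.725). It stood at 3.30 FPKM in the control and at 1.37 ± 0.226 FPKM (SD, n = 2) with the siRNAs. The control is the library in which olfactory receptor genes averaged 0.345 FPKM. With that mean subtracted the changes were -0.65 and -0.85, still past 1.5-fold, but the gene's mean over libraries, 0.945 FPKM, then missed the filter.

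In 769-P no member was above its control by the rule (3.6% of all tested genes), and HOXA5 was below it with both siRNAs (3.73% of all tested genes). HOXA5 was at 1.99 FPKM in the control and at 0.933 and 0.905 with the siRNAs, log2 changes of -0.63 and -0.65 (limma estimate -0.64, SE 0.39, adjusted p = 0.742). In DU145 HOXA5 went from 5.07 to 10.0 and 5.21 FPKM, so one siRNA library was well above the control and the other was not.

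In DU145 more HOX members lay above the control with siRNA 1 than with siRNA 2. Of the 19, 14 were above the control with siRNA 1 (median log2 change 0.30, against 0.07 and 57.0% above 0 over all tested genes) and 10 with siRNA 2 (median 0.02, against 0.12 and 64.0%). Set directly against each other, 16 of the 19 were higher with siRNA 1 than with siRNA 2, with a median difference of 0.29, against 44.04% and -0.05 over all tested genes. HOXA5 (0.86 and 0.03) passed 1.5-fold under siRNA 1 but not under siRNA 2, and the row of HOXC4, HOXC5 and HOXC6 (0.77 and 0.06) did likewise. HOXB6 was an exception, at -0.41 for the first siRNA and 0.13 for the other. In 769-P, 5 of the 19 were higher with siRNA 1 than with siRNA 2 (median difference -0.12, against 58.3% and 0.07), and 7 were at 0 in both the control and siRNA 1. The siRNA 2 library of that line is the one with values at olfactory receptor genes. Both siRNAs pointed the same way for 11 members in DU145, 8 above and 3 below the control, and for 8 in 769-P, 6 above and 2 below. The matching share over all tested genes was not counted, so these counts are only descriptions. Taken singly, siRNA 1 and siRNA 2 had 57.0% and 64.0% of all tested genes above the control in DU145, and 48.5% and 42.5% in 769-P. The 7 members at 0 in the 769-P control and siRNA 1 could not point the same way there.

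**Figure D4:**
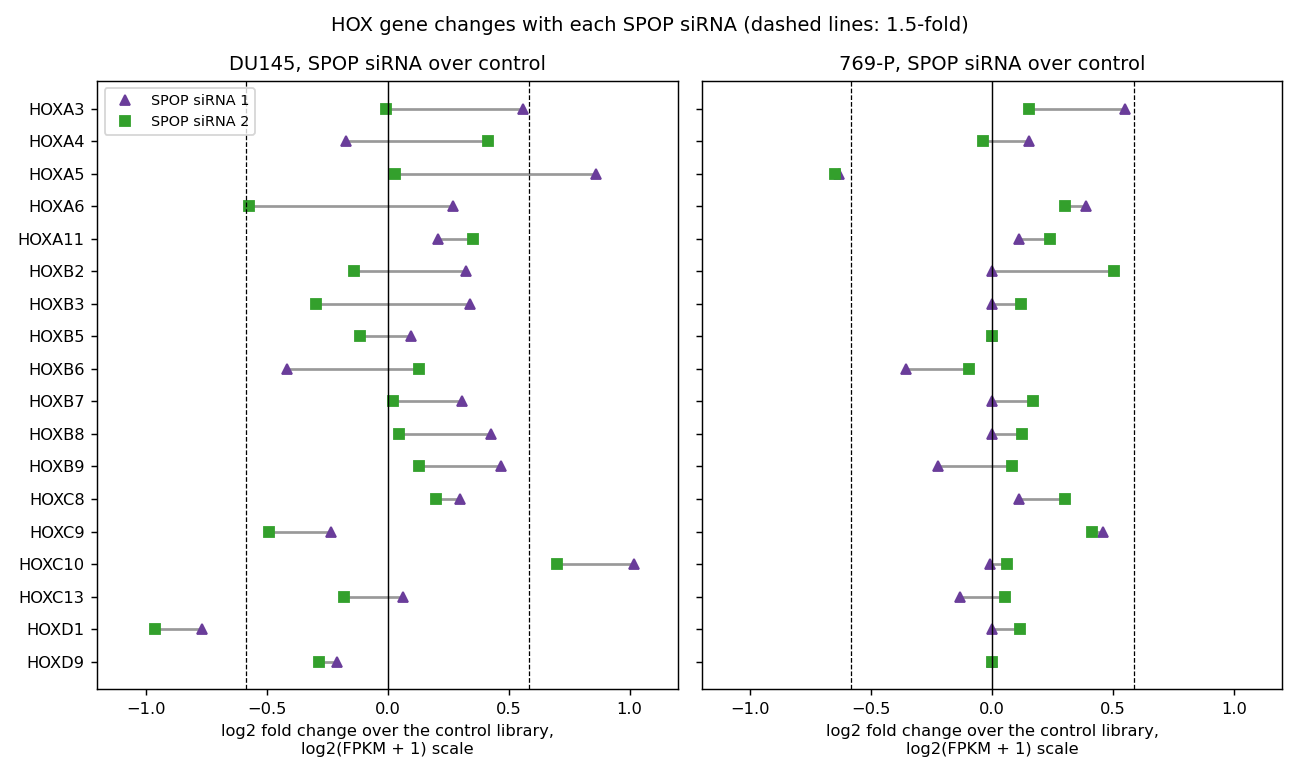
Log2 fold change over the control library, on the log2(FPKM + 1) scale, of 18 of the 19 tested HOX members with siRNA 1 (triangles) and siRNA 2 (squares), DU145 on the left and 769-P on the right; grey bars join the siRNAs and dashed lines mark 1.5-fold. HOXC10 (1.02 and 0.70) and HOXD1 (-0.77 and -0.96) lie beyond the lines with both siRNAs in DU145, and HOXA5 (-0.63 and -0.65) in 769-P.

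Noncoding genes of the 4 clusters were counted from a list of 26, of which 20 had a row of their own and 7 were tested. Of these 6 were higher in DU145 and 0 in 769-P, beside 32% and 18.2% of all tested genes. HOXB-AS1, HOXB-AS3, HOXA11-AS and HAGLR were under 1 FPKM in every 769-P library. They passed the filter only through DU145 and so had to differ. HOXD-AS2, which stood higher in 769-P, missed the filter, so these counts are no measure of the noncoding genes as a whole. HOXC-AS1 was the one of the 7 past 1.5-fold with both siRNAs, in DU145, at 0.894, 2.27 and 6.14 FPKM (log2 changes 0.79 and 1.92). Over all tested genes 4.72% rose that far there. Among those not tested, HOTAIR (0.90 and 0.96) and HOXC-AS2 (1.43 and 0.89) were also past it in DU145.

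Among the 9 PBX and MEIS cofactors, 5 were tested, 3 were higher in DU145 and 0 in 769-P, beside 32% and 18.2% of all tested genes. MEIS3 and PBX4 were under 1 FPKM in every 769-P library and so passed the filter only through DU145. MEIS3 was at 2.64, 2.81 and 2.58 FPKM in DU145 and at 0.235, 0 and 0.0830 in 769-P (1.74, SE 0.20, adjusted p = 0.000170). PBX3 was at 16.7, 21.1 and 18.6 FPKM in DU145 and at 6.96, 7.64 and 6.39 in 769-P (1.30, SE 0.16, adjusted p = 0.000293). PBX4 differed by 1.42 (SE 0.27, adjusted p = 0.00251). MEIS1, a cofactor often studied with HOX proteins, stayed under 1 FPKM in all libraries.

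Of the 13 trithorax genes, all tested, 5 were higher in DU145 and 2 in 769-P, near the shares of all tested genes (32% and 18.2%). MEN1, a subunit of a histone H3 lysine methyltransferase complex, differed by 0.92 (SE 0.14, adjusted p = 0.000698), KMT2B by 0.73 (SE 0.17, adjusted p = 0.00636) and the demethylase KDM6A by -1.03 (SE 0.19, adjusted p = 0.00219). Of the 15 Polycomb genes 11 were tested, 3 were higher in DU145 and 0 in 769-P, to be read beside the same shares. Among the first were CBX7 (1.36, SE 0.21, adjusted p = 0.000934) and PCGF2 (0.41, SE 0.14, adjusted p = 0.0378). CBX7 was under 1 FPKM in every 769-P library and passed the filter only through DU145, so its adjusted p is no separate support. JARID2, an accessory subunit of the Polycomb methyltransferase complex, was past 1.5-fold with both siRNAs in both lines, from 3.40 to 12.7 and 7.48 FPKM in DU145 and from 2.32 to 6.98 and 5.44 in 769-P. Limma did not call it (adjusted p = 0.744 and 0.693). SUZ12, a core subunit, was at 12.9, 6.74 and 8.11 FPKM in 769-P (log2 changes -0.85 and -0.61).

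Retinoic acid induces the anterior HOX genes in embryos and in cultured cells. Of 17 genes of its pathway 8 were tested, 5 were higher in DU145 and 2 in 769-P, beside 32% and 18.2% of all tested genes. ALDH1A1, an enzyme that makes retinoic acid, was at 21.3, 27.9 and 21.7 FPKM in 769-P and at 0.0823, 0 and 0.142 in DU145 (-4.51, SE 0.19, adjusted p = 1.99e-06). ALDH1A1 and another of the called genes were under 1 FPKM in every library of 1 line. They passed the filter only through the other line and so had to differ. CRABP2, which carries retinoic acid to the nucleus, was at 21.1, 22.2 and 45.7 FPKM in DU145 and at 1.42, 0 and 1.02 in 769-P (4.09, SE 0.40, adjusted p = 7.46e-05). RARG, a receptor, was at 27.0, 31.4 and 26.9 FPKM in DU145 and at 2.24, 4.72 and 3.56 in 769-P (2.74, SE 0.19, adjusted p = 1.33e-05). ALDH1A3, another enzyme of retinoic acid synthesis, was at 26.5, 26.4 and 29.3 FPKM in DU145 and at 12.1, 33.2 and 11.1 in 769-P, which overlapped (0.69, SE 0.35, adjusted p = 0.129). No knockdown change of the cofactor, trithorax or retinoid lists passed 1.5-fold with both siRNAs in either line.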

How the data were processed

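Polyadenylated RNA of 6 libraries was sequenced, 3 of DU145 and 3 of 769-P. The authors deposited 1 table of FPKM per gene and library; per the labels, reads were checked with FastQC, trimmed with cutadapt and aligned to hg19 with TopHat2, and the study's methods name Cufflinks for differential expression and do not say what made the FPKM. The labels and the study's methods name different library kits and input amounts, and the methods describe biological replicates where the labels list 1 library each. Read totals are not given, so no counting interval was made and a 0 is only listed as 0. Rows of a repeated symbol were summed, and no member had more than 1 row. Rows that combine symbols were kept apart.

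FPKM was set to log2(FPKM + 1), and genes averaging 1 FPKM or more were fitted in limma 3.58.1 (R 4.3.3, eBayes with trend), with line and knockdown as terms for the lines and 4 groups for the knockdown, Benjamini-Hochberg adjusted. Cluster sums were compared by exact two-sided permutation of libraries (scipy 1.17.1). Scripts were tested on simulated data. Alternatives were a pseudocount of 0.1, no filter, a filter at a mean of 5 FPKM, quantile normalization, no trend, subtraction of the olfactory receptor mean, a replicate block, other designs, other folds and each library left out. Positions came from GENCODE on GRCh37 and promoters from RefSeq.

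Members at 1 FPKM or more in a library were given with all values and the rest by range or count. From the lists of related genes, those with the 3 largest called line differences, those past 1.5-fold with both siRNAs, and other genes that bear on a member, chosen after their values were seen, were named. The members and lists were chosen with earlier results of these data known. Some genes, HOX genes among them, count in the totals but are not reported here by name or are left out. Tumour cohorts and qPCR were not analysed here.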

Additional observations from a re-analysis of the deposited data

Results flagged for a closer look

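HOXA5 had mean knockdown changes of opposite sign in the lines. Both siRNA libraries lay below the control in 769-P (-0.63 and -0.65), while the rise in DU145 came from siRNA 1 (0.86 and 0.03). With each library's median change over all genes removed, the DU145 changes were 0.79 and -0.09. The mean log2 changes were 0.45 in DU145 and -0.64 in 769-P, a difference of 1.09 (SE 0.55), and the limma interaction term did not pass (adjusted p = 0.999).

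HOXC9 was below the control with both siRNAs in DU145 (-0.36 on average) and above it with both in 769-P (0.44). The difference was -0.80 (SE 0.36, limma interaction, adjusted p = 0.999).

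HOXC11 went from 1.16 to 0.656 and 0.666 FPKM in DU145 and from 0 to 0.106 and 0.161 in 769-P, mean log2 changes of -0.38 and 0.18 with a difference of -0.56. Its mean missed the filter, and without the filter the limma interaction had adjusted p = 0.0800. The DU145 control and the 769-P siRNA 2 library, which set part of this pattern, are the libraries with values at olfactory receptor genes, and their part was not tested.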

How the results depend on the processing

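None of the line differences and cluster sums changed direction under any alternative run. Nor did the knockdown changes of HOXC10 and HOXD1 in DU145 and of HOXA5 in 769-P. The HOXA5 change with siRNA 2 in DU145 did, from 0.03 to -0.09 with the median change over all genes removed. The cause of the moves below was not tested beyond what the settings themselves remove. The count of 18 members higher in DU145 became 6, all of the 6 then tested, with a mean of at least 5 FPKM. The count of 1 higher in 769-P (HOXA4) became 2 with no filter (HOXD8 joined), 0 with a mean of at least 5 FPKM and 0 without the DU145 control and 769-P siRNA 2 libraries together. Members that missed the threshold in that last fit included HOXA3, HOXA4, HOXA5, HOXA6 and HOXC9; it has 1 residual degree of freedom, and HOXA5 also missed it with no filter (adjusted p = 0.0558). With no filter 1 member, HOXB1, was called after knockdown in DU145 and 1, the same gene, for the difference between the lines; it was above 0 in the DU145 control alone. The 1 member above control in DU145 (HOXC10) became 0 with a mean of at least 5 FPKM, with changes centred on the median and at 2-fold, and 1 to 3 when either siRNA was left out (HOXA5 was among those that joined with siRNA 1). The 1 below control there (HOXD1) became 3 with no filter (HOXC12 and HOXD12 joined), and 0 with a mean of at least 5 FPKM, with the olfactory receptor mean subtracted and at 2-fold. In 769-P the 0 above control became 2 with a pseudocount of 0.1 (HOXA6 and HOXA11), and the 1 below control (HOXA5) became 0 with a mean of at least 5 FPKM and at 2-fold. The replicate block, in which library numbers are shared by the lines, gave 18 members higher in DU145, 1 higher in 769-P and 0 after knockdown, as without it; the numbers name siRNAs and not batches, and siRNA 2 minus siRNA 1 correlated between the lines with r = 0.27 across 11865 genes, which are not independent replicates. Over all tested genes the block called 4238 higher in DU145 and 2478 in 769-P, against 3799 and 2165. With 1 control library per line and unknown depth, knockdown changes of low HOX genes could not be resolved.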

Other observations

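Genes that flank the clusters did not share one direction. Over all tested genes 32% were called higher in DU145 and 18.2% in 769-P. Beside HOXA, 3 of 4 listed neighbours were tested, with SKAP2, an adaptor protein, higher in DU145 (1.10, SE 0.19, adjusted p = 0.00171) and SNX10, a sorting nexin, higher in 769-P (-1.23, SE 0.25, adjusted p = 0.00396). HIBADH, an enzyme of valine breakdown, was past 1.5-fold with both siRNAs in DU145, at 18.6, 35.5 and 32.8 FPKM. Beside HOXB, 3 of 6 were tested and limma called 0 in either direction, although the HOXB members themselves were the most unequal. Beside HOXC, 3 of 5 were tested and 2 were higher in DU145, SMUG1, a DNA glycosylase (1.14, SE 0.26, adjusted p = 0.00629), and CALCOCO1 (0.67, SE 0.16, adjusted p = 0.00779). Beside HOXD, 3 of 4 were tested and the gene of a mitochondrial ATP synthase subunit, ATP5G3, was higher in 769-P (-1.38, SE 0.15, adjusted p = 0.000130). MTX2, a mitochondrial import gene there, went from 25.5 to 15.9 and 16.5 FPKM in 769-P with the siRNAs.

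The ParaHox genes, relatives of the HOX genes that include the CDX genes, did not reach the filter (0 of 6 tested). Their summed level was 2.31, 0.384 and 0.130 FPKM in DU145 and 0, 0.189 and 0.426 FPKM in 769-P (control, siRNA 1 and siRNA 2). The highest of each line is the library with values at olfactory receptor genes.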
